A study of Homo sapiens with 6 samples.

Results

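Gasdermin and inflammasome transcripts were examined in OVCAR8, a human ovarian cancer cell line, after exposure to pladienolide B, a small molecule that blocks the splicing factor SF3B1. The 10 genes were chosen by name, as the gasdermins GSDMB, GSDMD and GSDME, the sensors NLRP1, NLRP3 and CARD8, the adaptor PYCARD, the caspases CASP1 and CASP4, and the rupture gene NINJ1. All 10 were among the 38637 genes of the table. Cells of the control group received DMSO, the solvent of the drug, and cells of the other group received 2 nM pladienolide B. Both groups were collected at 72 h, and each group had 3 samples of polyadenylated RNA from the same line, with no genetic change stated for either group. No source stated whether the 3 samples were separate cultures, so p-values measure only the spread between these samples, which may be technical. The study asked whether SF3B1 inhibition brings ovarian cancer cells to pyroptosis, and the transcripts below are those of the proteins that carry out this form of death.

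Pyroptosis is a lytic cell death in which a gasdermin is cut by a protease and its freed N-terminal part forms pores in the plasma membrane. Inflammasomes are complexes in which a sensor, usually through the adaptor ASC, activates caspase-1, which cuts gasdermin D and matures IL-1β and IL-18. Caspase-4 binds bacterial lipopolysaccharide directly and also cuts gasdermin D, whereas gasdermin E links apoptotic signals to lytic death. The activation of all of these proteins is by assembly and cleavage, so that a transcript level gives the supply of a precursor and not its activity.

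Of the 10 genes, 9 had enough reads to be tested, and 4 of them differed between the groups. NLRP3 rose 1.63-fold, GSDMD fell to 58.0% of its DMSO level, GSDME fell to 77.0%, and CASP4 rose by a factor of only 1.10. NLRP1, CARD8, CASP1, GSDMB and NINJ1 did not pass the test, and PYCARD was at or under the detection floor of 3 reads in every sample. The share of members that passed (2 higher and 2 lower of 9) was to be read against a wide response to the drug. Of the 16178 genes tested, 47.6% passed, with 22.4% higher and 25.2% lower, so a member that passed was not unusual for doing so. The groups did not overlap for the same 4 members, while this held for 55.3% of all tested genes. None of the 9 reached a 2-fold change, which 3.93% of all genes tested did. The median log2 fold change of the 9 genes was 0.12 and the median of its absolute value 0.15, beside −0.004 and 0.23 over all genes tested.

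The values are adjusted reads, that is, reads on a gene brought by the authors to a common library size, with no correction for gene length. Whole reads recovered from them numbered 22621338 to 26130882 per sample, with the 3 DMSO samples (25006154 or more) above the 3 pladienolide B samples (24036812 or fewer). Replicates correlated at 0.992 to 0.994 on the log2 scale. DMSO 2 stood apart from the other DMSO samples, with a chi-square per degree of freedom of 7.20 and 7.29 against them, where DMSO 1 and DMSO 3 gave 2.00. Ovarian epithelial markers were present, with 10 of 11 tested and summed levels of 80810 to 86690 adjusted reads (DMSO) and 81270 to 96630 (pladienolide B). Most of the sum was keratin, of which KRT8 and KRT18 rose (41460 to 49900 and 19130 to 23550) while KRT7 fell (12530 to 8115). PAX8 averaged 4108 and 4341, MSLN fell from 4994 to 3683, and WT1, MUC16, WFDC2 and CDH1 were low, at 18.0 to 23.8 in DMSO. Among these low genes, CDH1 rose from 23.8 to 38.4 (adjusted p = 0.0317 by limma) and the others did not pass. EPCAM averaged 477 in DMSO and 445 in pladienolide B and did not pass. Of 10 leukocyte markers, TYROBP and CD3E had no read and PTPRC had at most 2 reads in a sample. The summed leukocyte level was 1178 to 1342 for the DMSO samples against 1558 to 1661 for the treated ones, and nearly all of it came from CD68, a lysosomal gene that epithelial cells also express (1146 to 1526). Fibroblast markers summed to 6968 to 7145 and 5903 to 6567, mostly COL1A1 (6800 to 5901). DCN had at most 2 reads in a sample, COL1A2 and LUM averaged 21.5 and 20.9 in DMSO and did not pass, and PDGFRB fell from 241 to 189 (adjusted p = 0.0259). The part of these marker changes in the results was not tested. SF3B1 itself, which the drug binds as a protein, rose from 10090 to 12510 adjusted reads (log2 fold change 0.31, SE 0.04, adjusted p = 7.5e-06 by limma). In bulk RNA, fewer cells with a transcript and less transcript per cell cannot be told apart.

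Promoter sequence is given for the member that rose most, NLRP3, and for a gasdermin that fell, GSDME, as examples only. The member that fell most, GSDMD, was among those without a promoter sequence. The RefSeq promoter table (GRCh38.p14) held 6 of the 10 members: NLRP3, CARD8, PYCARD, CASP4, GSDME and NINJ1. The members not matched were NLRP1, CASP1, GSDMD and GSDMB. The sequences are the 250 bases before the RefSeq start, 5′ to 3′ on the strand of the gene. Capitals mark TATAAA in NLRP3 and CCGCCC, read on either strand, in GSDME.
NLRP3, chr1:247415923-247416172, plus strand: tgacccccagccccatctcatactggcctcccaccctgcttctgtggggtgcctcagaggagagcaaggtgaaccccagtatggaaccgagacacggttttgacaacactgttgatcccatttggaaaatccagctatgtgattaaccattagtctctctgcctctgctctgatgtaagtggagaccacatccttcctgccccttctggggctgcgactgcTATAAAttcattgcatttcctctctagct
GSDME, chr7:24757465-24757714, minus strand: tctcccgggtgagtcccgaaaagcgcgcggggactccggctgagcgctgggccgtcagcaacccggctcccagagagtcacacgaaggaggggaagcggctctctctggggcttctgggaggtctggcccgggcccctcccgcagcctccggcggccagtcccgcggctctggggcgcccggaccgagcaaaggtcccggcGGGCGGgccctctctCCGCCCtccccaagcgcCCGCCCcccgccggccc

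The NLRP3 window had a GC content of 51.6% and 1 TATAAA, from −29 to −24 before the start. The GSDME window had a GC content of 76.4% and 3 matches to CCGCCC, at −49 to −44, −34 to −29 and −17 to −12. Both RefSeq starts lie inside the gene as the deposited table draws it, which begins at 247416163 for NLRP3, inside the end of the window, and at 24762235 for GSDME, upstream of the whole window. TATAAA was present in 11.1% and CCGCCC in 42.3% of 27305 windows of the same length, both strands searched. Among the other members with a window, CARD8 had 1 TATAAA, and PYCARD, CASP4 and NINJ1 had 2, 1 and 4 matches to CCGCCC. Of these, CASP4 rose, CARD8 and NINJ1 did not pass, and PYCARD could not be tested. A link between these motifs and the direction of change was not tested. TGANTCA, a form bound by AP-1 factors, was in none of the 6 windows and in 6.6% of all windows. A match is a run of letters and not a shown binding site.

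The sensors were taken first. NLRP3 (chromosome 1, 247416163 to 247448823, plus strand, GRCh38, as are all positions below) codes for the sensor that assembles with ASC after potassium loss and other signs of membrane damage, and its transcription is itself induced in priming. The adjusted reads were 156, 173 and 195 in DMSO 1 to 3 and 298, 294 and 263 in pladienolide B 1 to 3. Every treated sample lay above every DMSO sample, and the gap between the groups was wider than the spread inside either. The mean went from 175 ± 19.6 (SD, n = 3) to 285 ± 19.5 (SD, n = 3), a log2 fold change of 0.71 (SE 0.11, 95% interval 0.47 to 0.94, adjusted p = 5.9e-05 by limma). This change was larger in size than that of 90.3% of the genes tested. The level of the gene remained modest, since in its mean it ranked above only 31.9% of them.

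NLRP1 (chromosome 17, 5501396 to 5584509, minus strand) and CARD8 (chromosome 19, 48203148 to 48256264, minus strand) code for sensors that cut themselves in a FIIND domain and are held in check by the peptidases DPP8 and DPP9. NLRP1 gave 415, 359 and 359 adjusted reads in DMSO and 390, 407 and 437 in pladienolide B. The groups overlapped, with DMSO 1 above 2 of the 3 treated samples, and the log2 fold change of 0.12 (95% interval −0.06 to 0.31) had an adjusted p = 0.249 by limma. CARD8 gave 243, 211 and 197 in DMSO and 198, 223 and 235 in pladienolide B, with the highest sample of all in DMSO. Its log2 fold change was 0.01 (95% interval −0.22 to 0.25, adjusted p = 0.933), an interval that leaves room for a modest change in either direction. The antisense gene CARD8-AS1 shares 590 bases with CARD8, and the strand setting of the counting was not given in the sources used here, so reads of the shared stretch cannot be told apart. CARD8-AS1 had 138 adjusted reads in DMSO and 112 in pladienolide B (adjusted p = 0.155). LOC105371507, opposite NLRP1, was below 1 adjusted read in the mean of both groups.

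Relative to NLRP1 in the same sample, NLRP3 stood at 0.376, 0.483 and 0.544 in DMSO and 0.764, 0.724 and 0.601 in pladienolide B, as a ratio of adjusted reads. The ratios did not overlap, and the exact two-sided permutation test gave p = 0.1, the smallest that 3 samples against 3 allow.

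PYCARD (chromosome 16, 31201486 to 31202760, minus strand) codes for ASC, the adaptor through which NLRP3 recruits caspase-1. It had 0, 1 and 0 recovered reads in DMSO and 0, 0 and 2 in pladienolide B. These counts do not exceed the 3 reads that a count of 0 allows by counting error alone, and no fold is given. PYCARD was therefore not detectable in either group at a depth of 22621338 reads or more per sample, and a difference between the groups could not be seen. PYCARD-AS1, which overlaps it on the opposite strand, averaged 1.29 and 4.49 adjusted reads and was also not tested.

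Of the inflammatory caspases, CASP1 (chromosome 11, 105025443 to 105035591, minus strand) was scarce and CASP4 (chromosome 11, 104942866 to 104968596, minus strand) was abundant. CASP1 codes for the protease at the centre of the canonical inflammasome. Its adjusted reads were 71.5, 88.7 and 61.2 in DMSO and 75.1, 92.5 and 71.2 in pladienolide B. The groups overlapped almost fully, and the log2 fold change was 0.12 (95% interval −0.27 to 0.50, adjusted p = 0.636 by limma). CARD16, a decoy that shares nearly its whole sequence with the start of CASP1, had 8.35, 9.09 and 21.0 adjusted reads in DMSO and 11.6, 14.0 and 25.0 in pladienolide B (log2 fold change 0.41, 95% interval −0.47 to 1.30, adjusted p = 0.444). With 1 sample left out its log2 fold change was 0.105 to 0.807, and the split of reads between CASP1 and CARD16 is uncertain.

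CASP4, the cytosolic receptor for lipopolysaccharide, gave 3431, 3693 and 3465 adjusted reads in DMSO and 3971, 3910 and 3734 in pladienolide B. The groups were separate, but DMSO 2 and pladienolide B 3 differed by little. The mean went from 3530 ± 143 to 3872 ± 123 (SD, n = 3 each), a log2 fold change of 0.13 (SE 0.04, 95% interval 0.04 to 0.23, adjusted p = 0.0214 by limma). The call held without DMSO 2 or pladienolide B 3 (adjusted p = 0.00142 and 0.0201) but not without any of the other samples. Without DMSO 1, DMSO 3, pladienolide B 1 or pladienolide B 2 the adjusted p was 0.0941, 0.0785, 0.0986 and 0.0693, and it was 0.0959 when the variance was not allowed to follow expression. CASP5, the closest relative of CASP4, had 1 read in all 6 samples together. The ratio of CASP4 to CASP1 averaged 48.8 ± 7.53 in DMSO and 49.2 ± 6.01 in pladienolide B and did not separate the groups (exact two-sided permutation p = 0.9).

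**Figure D1:**
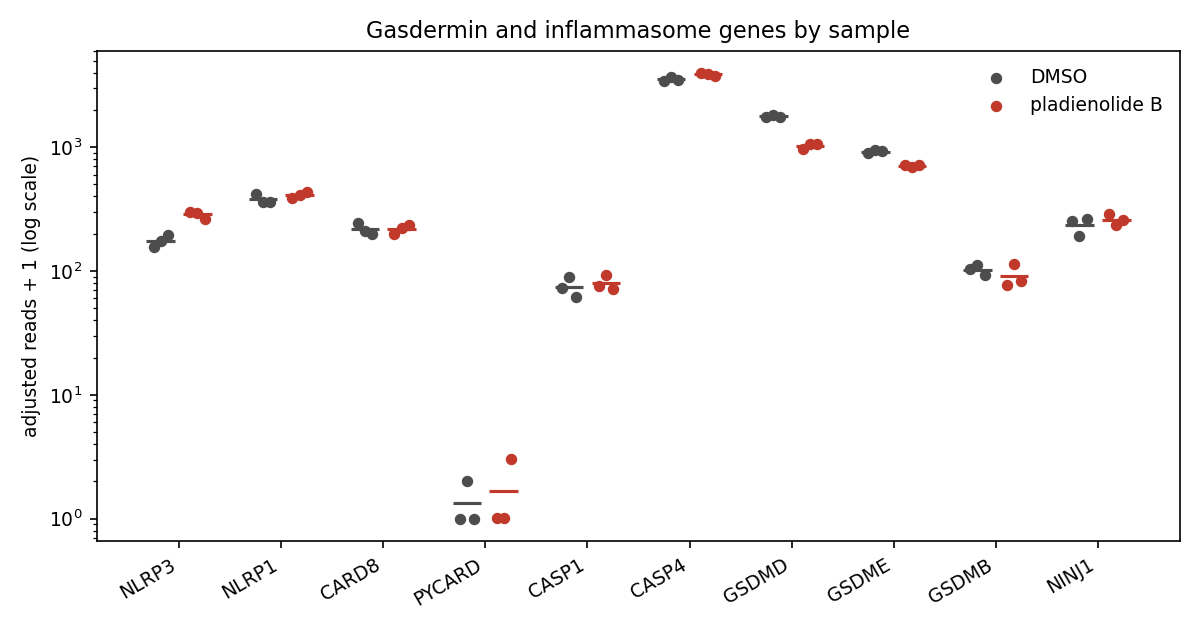
Adjusted reads plus 1 (log axis) of the 10 genes in each of the 6 samples, with DMSO in grey, pladienolide B in red and a line at the mean of each group. NLRP3 and CASP4 have their red points above the grey ones, GSDMD and GSDME have them below, PYCARD lies at the bottom with no more than 2 reads in a sample, and the points of the other 5 genes overlap.

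The gasdermins showed the largest fall. GSDMD (chromosome 8, 143553387 to 143563062, plus strand) codes for the pore-forming substrate of caspase-1 and caspase-4. Adjusted reads were 1743, 1808 and 1754 in DMSO and 965, 1053 and 1059 in pladienolide B. The highest treated sample was far below the lowest DMSO sample. The mean went from 1769 ± 34.8 to 1026 ± 52.5 (SD, n = 3 each), a log2 fold change of −0.79 (SE 0.05, 95% interval −0.90 to −0.67, adjusted p = 4.9e-09 by limma), larger in size than 92.5% of the changes tested. A gene of the opposite strand, LOC100310756, shares 1453 bases with GSDMD. It had 584 adjusted reads in DMSO and 556 in pladienolide B (log2 fold change −0.07, adjusted p = 0.544). Without the strand setting, reads of the shared stretch cannot be assigned to either gene, so the values of GSDMD may include some from the opposite strand.

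GSDME (chromosome 7, 24698355 to 24762235, minus strand) codes for the gasdermin by which an apoptotic signal can turn lytic. The DMSO samples had 891, 951 and 923 adjusted reads and the pladienolide B samples 723, 692 and 714. The groups were again separate, by a smaller gap than for GSDMD. The mean went from 922 ± 29.7 to 710 ± 16.0 (SD, n = 3 each), a log2 fold change of −0.38 (SE 0.06, 95% interval −0.50 to −0.25, adjusted p = 6.2e-05 by limma). The fall was larger in size than 70.9% of the changes tested.

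GSDMB (chromosome 17, 39904595 to 39918635, minus strand) codes for a gasdermin that granzyme A of cytotoxic lymphocytes can cut. It had 103, 111 and 91.5 adjusted reads in DMSO and 76.3, 114 and 82.2 in pladienolide B. Pladienolide B 2 was the highest sample of all and the other treated samples were the lowest, so the groups overlapped. The log2 fold change of −0.18 had a 95% interval of −0.54 to 0.18 (adjusted p = 0.409 by limma), which includes the change of GSDME.

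**Figure D2:**
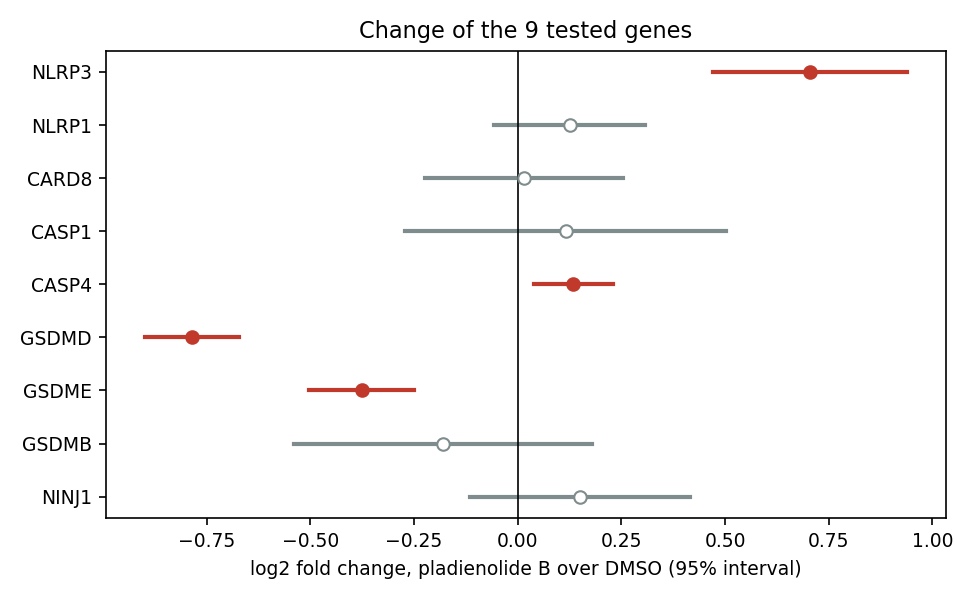
Log2 ratio of the treated over the DMSO group for the 9 tested genes, with the 95% interval of the limma fit as a line and filled red points for an adjusted p below 0.05. GSDMD at −0.79 and GSDME at −0.38 lie left of 0 and NLRP3 at 0.71 right of it, CASP4 at 0.13 is just clear of 0, and the intervals of the other 5 include 0.

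Levels of different genes were compared after division by the length of the canonical transcript, in adjusted reads per kilobase. In DMSO the order was CASP4 at 2724 ± 110, GSDMD at 1026 ± 20.2, GSDME at 410 ± 13.2 and NINJ1 at 190 ± 32.1 (SD, n = 3). These 4 were each separate from the next in every sample. NLRP1 at 67.3 ± 5.75 and GSDMB at 64.2 ± 6.14 overlapped, as did NLRP3 at 41.8 ± 4.69, CARD8 at 38.7 ± 4.23 and CASP1 at 37.0 ± 6.96 from one to the next. In pladienolide B the first 4 kept their order, at 2987, 595.5, 315 and 209. NLRP1 at 73.3, NLRP3 at 68.1 and GSDMB at 57.3 then overlapped from one to the next, followed by CASP1 at 39.9 and CARD8 at 39.0, which overlapped. PYCARD was last in both groups, at 0.443 and 0.890 adjusted reads per kilobase. Its reads were under the detection floor in every sample, so these values do not show a change. The order depends on which transcript the reads come from. Over the union of all annotated exons, NLRP3 ranked 5 in both groups, at 36.8 and 59.96, and NINJ1 was above GSDME in pladienolide B, at 99.5 against 82.5.

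As the family's 6 genes are measured here, the gasdermin supply of these cells was mostly GSDMD and GSDME. The summed level of the 6 was 1488, 1561 and 1503 adjusted reads per kilobase in DMSO and 942.8, 1007 and 998 in pladienolide B. All treated samples were below all DMSO samples, and the treated mean was 64.8% of the DMSO mean (64.0% with the union of exons). GSDMD made up 68.0%, 67.2% and 67.7% of the sum in DMSO and 59.4%, 60.7% and 61.6% in pladienolide B. The share of GSDME was 26.6%, 27.1% and 27.3% in DMSO and 34.1%, 30.5% and 31.8% in pladienolide B. Both genes fell, GSDMD by more, so that the shares came closer to each other. The ratio of GSDMD to GSDME in adjusted reads was 1.96, 1.90 and 1.90 in DMSO and 1.34, 1.52 and 1.49 in pladienolide B, with no overlap (exact two-sided permutation p = 0.1, the smallest the design allows). GSDMA and PJVK were tested and did not pass (log2 fold changes −0.71 and −0.06, adjusted p = 0.0992 and 0.907 by limma), and GSDMC had too few reads.

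**Figure D3:**
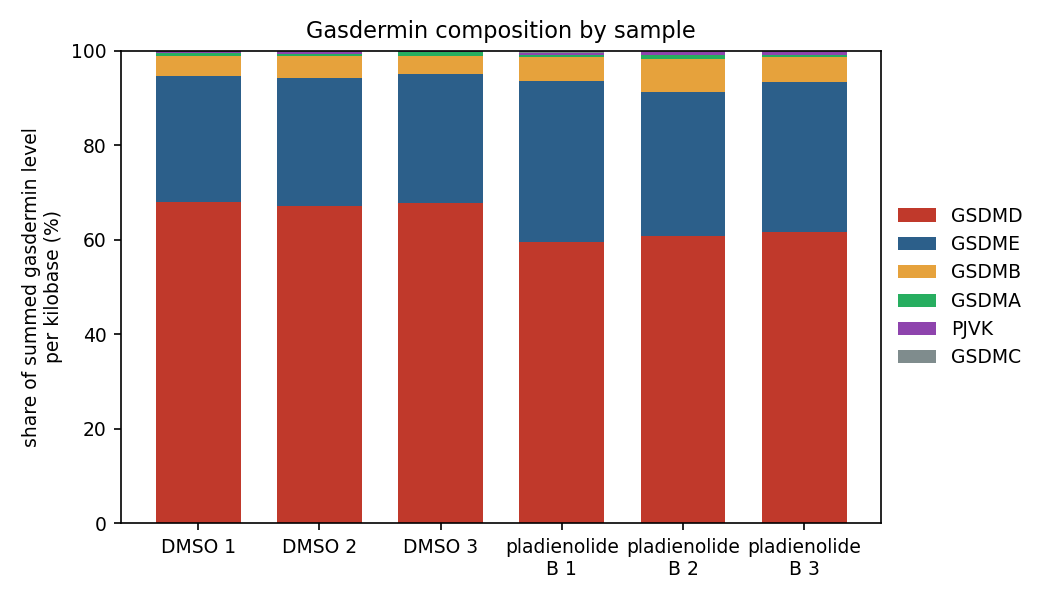
Share of each gasdermin in the summed gasdermin level per kilobase of canonical transcript (percent, stacked bars from 0 to 100) in each of the 6 samples. The red GSDMD segment is 67.2% to 68.0% in the DMSO bars and 59.4% to 61.6% in the pladienolide B bars, and the blue GSDME segment is taller in every treated bar.

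NINJ1 (chromosome 9, 93121496 to 93134304, minus strand) codes for the membrane protein whose clustering ruptures the cell after the pores have formed. It had 250.7, 190 and 264 adjusted reads in DMSO and 288, 232 and 257 in pladienolide B. The groups overlapped, and DMSO 2 was the lowest of the 6 samples. The log2 fold change was 0.15 (95% interval −0.12 to 0.41, adjusted p = 0.347 by limma). Without DMSO 2 it was 0.004.

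Gene structure had no part in the choice of the genes. The canonical transcripts of GSDMD and GSDME have 10 and 9 introns and those of NLRP3 and CASP4 have 9 and 8. GSDMB, which did not pass, has 10, and NLRP1 and CARD8 have 16 and 13. The median over 15059 tested genes was 7. The GC content of the canonical transcript was 64.0% for GSDMD, 48.8% for GSDME, 51.5% for NLRP3 and 45.5% for CASP4. These counts are per gene, so retained introns and altered exons were not analysed here.

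The tested genes with a profile over the 6 samples most like that of NLRP3 were RARB, LOC653513 and ZFP36, with a root-mean-square difference of centred log2 values of 0.0305, 0.0433 and 0.0440. Those most like GSDMD were AACS, DCHS2 and MBTPS1, at 0.0307, 0.0319 and 0.0351. ZFP36 codes for a protein that speeds the decay of messages with AU-rich elements, and its adjusted reads went from 149 to 241.5. AACS codes for the acetoacetyl-CoA synthetase and MBTPS1 for the site-1 protease that frees SREBP. AACS went from 724 to 413, DCHS2 from 129.8 to 76.35 and MBTPS1 from 2436 to 1430. A shared function of these genes was not tested. All 6 samples enter this measure, so the difference between the groups counts in it.

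The other genes of the pathway were read from a list of 59, ordered by role, of which 40 could be tested. Of these 12 rose, 11 fell and 17 did not pass, to be read against the 47.6% of all tested genes that passed (22.4% higher and 25.2% lower), as are the counts for each role below. The log2 fold changes had a median of 0.03 and a median absolute value of 0.27, close to the 0.23 of all genes tested. Of the 19 that were not tested, 12 had at most 3 reads in every sample, AIM2 and PYDC2 had none, and none had more than 13 in any sample. Among the sensors and their relatives, 6 of 13 were tested, of which IFI16 rose, NAIP fell and 4 did not pass. NAIP codes for the receptor that hands bacterial flagellin and secretion needles to NLRC4. It had 150, 136 and 128 adjusted reads in DMSO and 59.9, 101 and 106 in pladienolide B. All treated samples were below the DMSO samples, with pladienolide B 1 far below the others (log2 fold change −0.67, adjusted p = 0.0073 by limma). Without pladienolide B 1 the log2 fold change was −0.41 (adjusted p = 0.0418), and with a variance that did not follow expression the call was lost (adjusted p = 0.0659). NAIP has near-identical partial copies beside it in the genome, so its reads are uncertain.

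Among the caspases and other proteases that act on gasdermins, CASP8 rose. CASP8, an initiator caspase that can cut gasdermin D, had 492, 512 and 475 adjusted reads in DMSO and 708, 693 and 675 in pladienolide B. The lowest treated sample was far above the highest DMSO sample, with a log2 fold change of 0.49 (SE 0.07, adjusted p = 1.5e-05 by limma). GZMA, GZMB, ELANE and CTSG, proteases of lymphocytes and neutrophils, were too low to test.

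Of 11 decoys and inhibitors, 7 were tested, of which 2 rose, 1 fell and 4 did not pass, beside the 47.6% of all genes that passed. SERPINB9, the inhibitor of granzyme B that also binds caspase-1, went from 131 to 208 adjusted reads (log2 fold change 0.66, adjusted p = 1.8e-04 by limma). FBXL2, a ubiquitin ligase subunit that marks NLRP3 for degradation, had 526, 591 and 484 adjusted reads in DMSO and 260, 284 and 280 in pladienolide B. The highest treated sample was far below the lowest DMSO sample, with a log2 fold change of −0.95 (SE 0.09, adjusted p = 2.0e-07). The direction was opposite to that of the NLRP3 transcript. These RNA data do not measure the NLRP3 protein, which the study examined separately by western blot. A link between the changes of these genes was not tested. DPP8 and DPP9, which restrain NLRP1 and CARD8, had log2 fold changes of −0.01 (95% interval −0.11 to 0.10) and 0.04 (95% interval −0.05 to 0.12).

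Activators and licensing factors had 13 of 14 genes tested, with 4 higher, 5 lower and 4 not past the test, where 22.4% of all genes were higher and 25.2% lower. P2RX7, the ATP-gated channel that starts the potassium loss sensed by NLRP3, had 22.6, 23.2 and 18.8 adjusted reads in DMSO and 48.0, 46.0 and 53.1 in pladienolide B. The groups were well apart, at a low level (log2 fold change 1.15, SE 0.24, adjusted p = 7.1e-04 by limma). GBP1 and GBP2, interferon-induced guanylate-binding proteins that coat bacteria and recruit caspase-4, fell by 0.78 and 0.98 on the log2 scale, from 479 to 277 and from 149 to 75.8 adjusted reads. HDAC6, a deacetylase that carries NLRP3 along microtubules, fell by 0.72, from 637 to 385.5. NEK7, the kinase that binds NLRP3 as it assembles, had a log2 fold change of −0.04 (95% interval −0.15 to 0.06, adjusted p = 0.492). In membrane rupture and repair, all 6 genes were tested, and CHMP4B rose, CHMP3 and CHMP4A fell, and 3 did not pass.

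The released ligands held the largest change of the list. IL1B, the precursor that caspase-1 matures, had 510, 494 and 477 adjusted reads in DMSO and 2872, 3394 and 1902 in pladienolide B. The lowest treated sample, pladienolide B 3, was still far above every DMSO sample, and the treated samples differed widely among themselves. The log2 fold change was 2.42 (SE 0.13, 95% interval 2.14 to 2.70, adjusted p = 3.4e-10 by limma). IL18, the other substrate of caspase-1, was already abundant, with 6252, 6679 and 6418 adjusted reads in DMSO and 6135, 5907 and 5960 in pladienolide B. Its log2 fold change was −0.10 (SE 0.04, adjusted p = 0.0457), a call that was lost in 11 of 14 other settings, where the adjusted p reached 0.135. IL1A rose (log2 fold change 0.36, adjusted p = 0.0299), with pladienolide B 3 inside the DMSO range, a call lost in 6 of 14 other settings (adjusted p up to 0.226). Its log2 fold change was 0.19 without pladienolide B 2 and 0.55 without pladienolide B 3. HMGB1, a nuclear protein released on rupture, fell by 0.33 on the log2 scale.

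**Figure D4:**
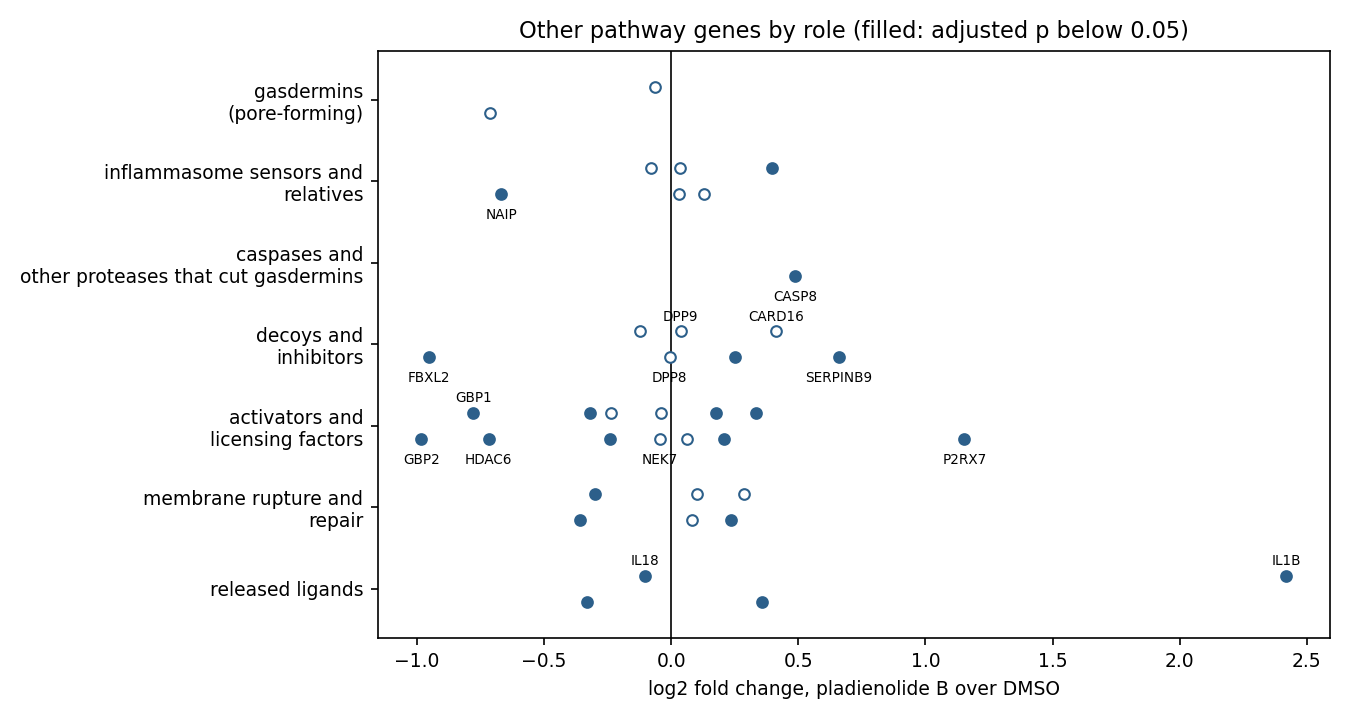
Log2 ratio of the treated over the DMSO group for the tested genes of the wider pathway, 1 row per role and with 1 tested gene not shown, with filled points for an adjusted p below 0.05 by limma and open points for the rest. IL1B at 2.42 and P2RX7 at 1.15 are the farthest right, GBP2 at −0.98 and FBXL2 at −0.95 the farthest left, and 17 points are open.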

How the data were processed

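OVCAR8 RNA was sequenced after poly(A) selection (3 DMSO and 3 pladienolide B samples). Per the study's methods, the trimmed reads were mapped by hisat2 on hg38 and DESeq2 was used for differential expression. The submitters' processing notes name HISAT2, HTSeq 0.12.4, DESeq2 and the build hg19. The positions match GRCh38, since 99.97% of 26990 symbols overlap the GENCODE gene of that name. The strand setting of the counting was not given in the sources used here. The signal values that the authors deposited, 1 per gene and sample, are adjusted for library size. Their form is that of edgeR's quantile adjustment (common dispersion 0.0027), and undoing it gave reads whole to within 0.02 for 100% of values. Columns with the log2 fold change, p-value and q-value of the authors' own comparison were not used.

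Genes with a value of about 10 in at least 3 samples and 15 in total were kept. Values were tested as log2(value + 1) with limma 3.58.1 (R 4.3.3), two-sided, with a variance trend, and p-values were Benjamini-Hochberg adjusted over all 16178 genes. Fold changes are therefore on the log2(value + 1) scale, which understates low genes. The script was tested on simulated data with the same dispersion for every gene and few changed genes. That test does not cover a response as wide as the one seen here. Alternatives were a pseudocount of 0.1, other filters, a replicate block, each sample left out, no variance trend, and edgeR 4.0.16 (quasi-likelihood) and DESeq2 1.42.0 on the recovered reads. The main fit did not pair samples by the numbers in the titles. Ratios were tested by exact permutation. The length used per kilobase is that of the canonical GENCODE transcript, and the union of exons was an alternative chosen after seeing the data. Intervals of the fits cover the spread between samples, and the floor of 3 reads covers counting error only.

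The members and lists were chosen with earlier results of these data known. All 10 members are named. Of the pathway list, the 5 largest rises and 5 largest falls that passed are named, with IL1B, IL18, CASP8, CASP5, CARD16, NEK7, DPP8 and DPP9 in any case, except that 1 gene of the list, counted in its totals, is not reported here. GSDMA, PJVK, IFI16, CHMP3, CHMP4A, CHMP4B, IL1A and HMGB1 were named after their values were seen. The 3 genes most like the member that rose most and the one that fell most are named by the root-mean-square difference of mean-centred log2 values.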

Additional observations from a re-analysis of the deposited data

How the results depend on the processing

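Under 14 alternatives, NLRP3, GSDMD and GSDME kept their direction and their side of the threshold, with log2 fold changes of 0.627 to 0.788, −0.81 to −0.743 and −0.401 to −0.354. With 1 sample left out, the CASP4 log2 fold change was 0.114 to 0.167. Its call held without DMSO 2 (adjusted p = 0.00142) or pladienolide B 3 (adjusted p = 0.0201) and was lost without any of the other 4 samples, and it was lost, at 0.134, without the variance trend (adjusted p = 0.0959). The number of members higher was accordingly 1 to 2 with a sample left out and 1 without the trend, and 2 members were lower under every alternative.

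Leaving out a sample turned the direction of genes that had not passed, with log2 fold changes of −0.052 to 0.099 for CARD8, −0.01 to 0.255 for CASP1, −0.233 to 0.203 for PJVK, −0.227 to 0.503 for NLRC4, −0.127 to 0.008 for NOD1, −0.317 to 0.428 for NLRC3, −0.029 to 0.095 for NLRX1, −0.016 to 0.002 for DPP8 and −0.418 to 0.109 for TRIM31. DPP8 was at 0.004 by edgeR with RLE factors and by DESeq2. Numbers of pathway genes stayed within 11 to 16 higher and 10 to 11 lower. Over all genes, 6381 to 7836 passed, beside 7695 in the main setting.

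Same-numbered samples showed no shared deviation over the tested genes, with correlations of −0.018, −0.017 and 0.003. The labels do not state whether same-numbered samples were handled together, and these correlations cannot settle it. With the replicate number as a block, 7349 genes passed, and the log2 fold changes were 0.706 for NLRP3, −0.786 for GSDMD, −0.377 for GSDME and 0.134 for CASP4 (adjusted p = 2e-04, 5.49e-08, 0.000263 and 0.0332). Of the genes named, the block ended the IL18 call (adjusted p = 0.0843). PYCARD and 19 other pathway genes had too few reads to be tested, and low expression was not told apart from limited depth.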
